A study of Homo sapiens with 24 samples.

Results

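The genes described here code for the subunits, regulators and assembly chaperones of the proteasome. They were every gene whose name on the array was PSM followed by a letter from A to G and a number, without PSMB8 and PSMB9, and each gene was read through its brightest probe. This gave 46 genes of the 25992 gene names on the array, read by 66 of its 34127 probes. The core class (PSMA and PSMB) held 17 genes, the cap class (PSMC and PSMD) 20, and the regulator class (PSME, PSMF and PSMG) 9. RNA came from A549 and H1975 cells, established human lung adenocarcinoma lines. Cells received 0.75 mg/ml Pirfenidone, an antifibrotic drug, or the same volume of PBS, its solvent, for 6 h or 24 h. The 8 groups were A549 PBS 6 h, A549 Pirfenidone 6 h, A549 PBS 24 h, A549 Pirfenidone 24 h and the same 4 in H1975, with 3 samples in each and 1 one-color array per sample. Both are cultured lines and stand for no whole tumor, and nothing in the labels says that the 3 samples of a group came from separate cultures, so p-values measure the spread between these samples, which may be technical.

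The proteasome is the protease that degrades proteins marked with ubiquitin. Its barrel-shaped core is made of outer rings of alpha subunits (PSMA genes), which gate the entrance, and inner rings of beta subunits (PSMB genes), of which PSMB5, PSMB6 and PSMB7 carry the cutting sites. The cap binds, unfolds and feeds in the substrate: PSMC genes code for its ATPase ring, and most PSMD genes for its scaffold, ubiquitin receptors and deubiquitinase, while some PSMD products are assembly chaperones. PSME genes code for other activators that bind the ends of the core, PSMF1 for a core-binding regulator, and PSMG genes for chaperones that build the alpha ring. The genes are expressed in most cells, and the transcription factor NFE2L1 (also called NRF1), which is itself broken down or released by cleavage, is known to raise many of them when proteasome activity drops.

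Between 62.7% and 69.5% of probes were well above background on each of the 24 arrays. Of the 46 genes, 44 entered the test (15 core, 20 cap, 9 regulators), and 42 of them were well above background on all 24 arrays. PSMA8, a testis form, and PSMB11, a thymus form, were well above background on 0 of 24 arrays and were not tested. PSMC5 and PSME1 each lacked 1 array to an outlier spot and were fitted without it. No array was saturated for any of the genes. All 6 epithelial markers were well above background on all 24 arrays, while of the leukocyte, endothelial and fibroblast markers reported here DCN was on 0, CD3E on 1, PDGFRA on 3, LUM on the 12 of A549, PECAM1 and VWF on the 12 of H1975, PTPRC on 23, and CD14 and CDH5 on 24. Arrays carried 4 dates, called runs 1 to 4 here, and each line's treatments and times had fixed places on a slide, so place cannot be told apart from treatment and time. Signal is given as log2 relative to the array's 75th percentile, and is an average over all cells of a sample, so that less RNA per cell and fewer expressing cells cannot be told apart.

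The sequences shown here are stretches of promoter that hold 1 of the 2 short motifs searched, for genes whose values are described further on. Promoters, from 250 bases before to 50 bases after the start, came from RefSeq (GRCh38.p14) and were found for 40 of the 46 genes, with none for PSMA7, PSMB1, PSMB6, PSMB7, PSMD4 and PSMG3. Both strands were searched for CCAAT, the box bound by NF-Y, and for TGACNNNGC, the antioxidant response element core that NFE2L1 and NFE2L2 bind with small MAF partners. Windows of 60 bases are written 5′ to 3′ on the gene's strand, with the motif in capitals. PSMC3 (chr11:47426521-47426580, minus strand) and PSMB5 (chr14:23035352-23035411, minus strand) held CCAAT, beginning 114 and 164 bases before the start. PSMD8 (chr19:38374456-38374515, plus strand) held it on the other strand, 88 bases before the start, where it reads ATTGG. PSMB3 (chr17:38752612-38752671, plus strand) and PSME1 (chr14:24136083-24136142, plus strand) held TGACNNNGC 104 and 86 bases before the start.
PSMC3: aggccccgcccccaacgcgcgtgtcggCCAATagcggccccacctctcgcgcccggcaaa
PSMB5: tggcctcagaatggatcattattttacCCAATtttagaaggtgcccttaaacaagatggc
PSMD8: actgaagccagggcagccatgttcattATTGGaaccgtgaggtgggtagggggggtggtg
PSMB3: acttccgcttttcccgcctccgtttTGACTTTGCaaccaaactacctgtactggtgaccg
PSME1: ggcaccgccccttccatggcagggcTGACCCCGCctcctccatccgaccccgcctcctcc
CCAAT was present in 18 of 40 promoters (45%) and in 9747 of all 27305 (35.7%), and TGACNNNGC in 12 of 40 (30%) and in 3702 of 27305 (13.6%). By class, TGACNNNGC was in 1 of 13 core, 6 of 19 cap and 5 of 8 regulator promoters, and CCAAT in 7, 9 and 2 of them. A match describes letters only, since binding was not measured.

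In H1975 at 24 h, most proteasome genes read lower after Pirfenidone than after PBS, by small amounts, and 2 passed the test. These were PSMC3, an ATPase of the cap ring, and PSMG3, a chaperone of core assembly, both lower. The median log2 difference over the 44 genes was -0.24, with 42 lower and 2 higher, and it ranged from -0.54 to 0.08, against a median of 0.02 over all 23827 probes tested, of which 47.1% were lower. The cap had a median of -0.28 with 20 of 20 lower, the core -0.24 with 15 of 15 lower, and the regulators -0.12 with 7 of 9 lower. The call rule was an adjusted p of 0.05 or less by limma over all probes, which 2 of 44 members (both lower) and 6.26% of all probes passed in either direction, or 3.35% in the lower direction. With a 2-fold limit added, 0 members and 1.89% of all probes passed. At an unadjusted p under 0.05, 20 of 44 members were lower and 0 higher, beside 21.96% of all probes in either direction. For 30 of the 44, all 3 Pirfenidone arrays lay below all 3 PBS arrays (11 of 15 core, 15 of 20 cap, 4 of 9 regulators), as for 15.6% of all probes. Brightness moves with this count: among the 3321 probes with a mean log2 signal above 2, which include 37 members, 27.9% did so against 28 of the 37. It moves with the direction as well, as the median difference over these bright probes was -0.05 with 57.6% lower.

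**Figure D1:**
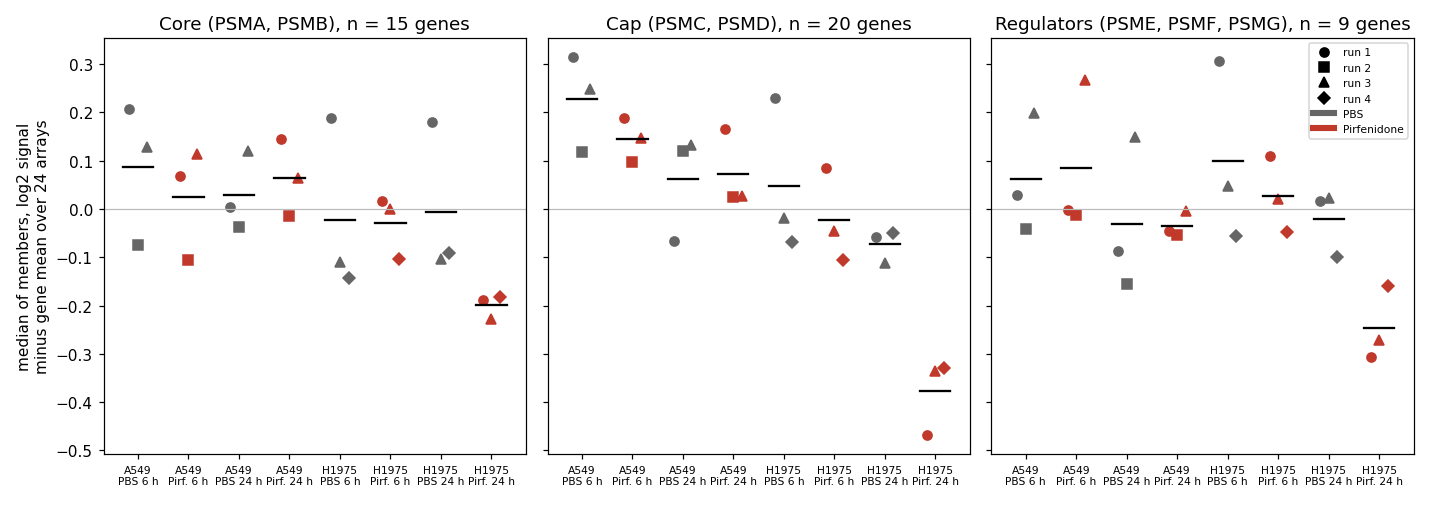
Median over the core (15 genes), cap (20) and regulator (9) genes on each of the 24 arrays, as log2 signal minus each gene's mean over the arrays, with marker shape giving the run, color the treatment, and a bar the mean of 3 arrays. In H1975 at 24 h the cap mean was -0.07 with PBS and -0.38 with Pirfenidone, while in A549 at 24 h it was 0.06 and 0.07.

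The cutting subunits of the core read lower in H1975 at 24 h, and none passed the test. Among the alternative limma fits, PSMB5 passed only with slide as a block (-0.34, limma adjusted p = 0.0302). A larger share of all probes passed in that fit too. PSMB5, the chymotrypsin-like subunit (probe at chr14:23495485-23495544 in hg19), read 4.95, 5.07 and 4.96 with PBS and 4.76, 4.84 and 4.43 with Pirfenidone. The groups did not overlap, and the third Pirfenidone array was the lowest. The difference was -0.32 (SE 0.11, limma adjusted p = 0.103). PSMB6, the caspase-like subunit, read 5.38, 5.39 and 5.31 with PBS and 5.21, 5.26 and 4.96 with Pirfenidone, again with no overlap, a difference of -0.22 (SE 0.09, limma adjusted p = 0.161). PSMB7, the trypsin-like subunit, read 5.32, 5.47 and 5.53 with PBS and 5.19, 5.34 and 5.21 with Pirfenidone. The groups of PSMB7 overlapped, as 1 Pirfenidone array lay above the lowest PBS array, and the difference was -0.19 (SE 0.10, limma adjusted p = 0.258). PSMB10, the inducible subunit that takes the place of PSMB7 in the immunoproteasome, read 3.94, 4.09 and 4.85 with PBS and 3.84, 3.96 and 4.36 with Pirfenidone. Its groups overlapped and its arrays spread widely, with a difference of -0.24 (SE 0.25, limma adjusted p = 0.651).

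Among the other core genes, PSMB3, a structural beta subunit, had the lowest difference, at -0.35 (SE 0.21, limma adjusted p = 0.373). It read 4.09, 4.14 and 4.64 with PBS and 3.99, 3.88 and 3.97 with Pirfenidone, and 1 high PBS array set much of that size. PSMA6, an alpha subunit, lay at the other end of the class, at -0.11 (SE 0.09, limma adjusted p = 0.521), with 5.27, 5.12 and 5.30 for PBS and 5.17, 5.14 and 5.06 for Pirfenidone. Its groups overlapped.

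PSMC3 (probe at chr11:47444434-47444493 in hg19) had the lowest difference of the cap. It read 3.18, 3.16 and 3.06 on the PBS arrays and 2.77, 2.75 and 2.26 on the Pirfenidone arrays. The groups were separate, and the third Pirfenidone array lay well below the other two. The mean fell from 3.13 ± 0.06 to 2.60 ± 0.29 (SD, n = 3 each), 1.45-fold lower or -0.54 on the log2 scale (SE 0.14, limma adjusted p = 0.0317). PSMD4, a ubiquitin receptor of the cap, read 4.86, 5.00 and 5.21 with PBS and 4.93, 5.04 and 5.06 with Pirfenidone, which overlapped, a difference of -0.01 (SE 0.11, limma adjusted p = 0.968). Between these lay the large base scaffold PSMD1 at -0.45, the lid subunits PSMD13 at -0.41 and PSMD3 at -0.41, and the deubiquitinase PSMD14 at -0.18, with limma adjusted p of 0.122, 0.260, 0.092 and 0.347. These 4 were named after their values were seen.

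PSMG3 (probe at chr7:1607421-1607480 in hg19) read 2.77, 2.55 and 2.62 with PBS and 2.16, 2.18 and 2.05 with Pirfenidone. The groups were well apart. The mean fell from 2.65 ± 0.11 to 2.13 ± 0.07 (SD, n = 3 each), 1.43-fold lower or -0.52 on the log2 scale (SE 0.11, limma adjusted p = 0.0100). PSME3, the nuclear activator often called PA28 gamma, read 1.65, 1.41 and 1.52 with PBS and 1.07, 0.97 and 1.01 with Pirfenidone. Its groups did not overlap either, with a difference of -0.51 (SE 0.17, limma adjusted p = 0.085) that missed the threshold. PSME3 was singled out here after its values were seen. PSME1, an interferon-inducible activator subunit, had the highest difference of the class, 0.08 (SE 0.15, limma adjusted p = 0.854), with overlapping arrays at 0.00, -0.10 and 0.27 for PBS and 0.10, -0.02 and 0.30 for Pirfenidone. Of 17 further probes for 13 of the 44 genes, 14 were lower and 3 higher, and 0 passed by limma. A second probe of PSMD1 read -0.50 and a second probe of PSMG2 read 0.72 (limma adjusted p = 0.082 and 0.097), against -0.45 and -0.09 for the brightest probes of these genes.

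**Figure D2:**
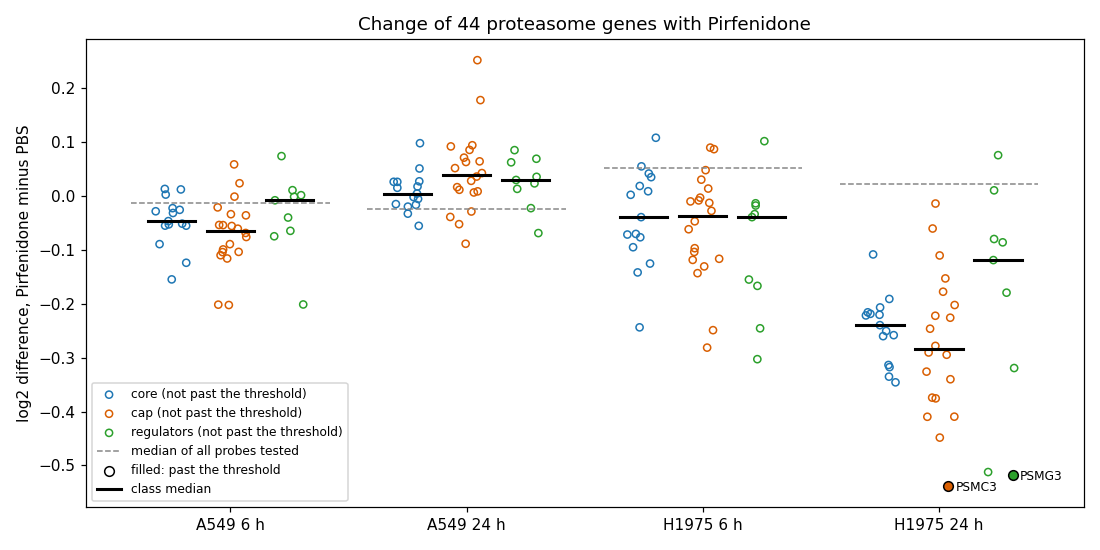
Log2 difference of Pirfenidone minus PBS for each of the 44 genes in the 4 line and time comparisons, by class, with black bars for class medians, dashed lines for the median of all probes and filled points past the threshold. Only PSMC3 (-0.54) and PSMG3 (-0.52) in H1975 at 24 h are filled, and class medians lie between -0.06 and 0.04 in the other 3 comparisons.

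Each Pirfenidone array had a PBS array of the same run, which gives 3 within-run differences. In H1975 at 24 h the median over the genes was -0.42 in run 1 (43 of 44 lower), -0.17 in run 3 (38 lower, with the arrays on different slides) and -0.14 in run 4 (40 lower). The direction was shared, and run 1 was the largest. Over all probes the within-run medians were -0.004, 0.02 and 0.04. Of the 44 genes, 37 were lower in all 3 runs and 1 was higher in all 3. These shares were not counted over all probes, so they do not set the members apart from other genes. PSMC3 differed by -0.80, -0.41 and -0.40 in runs 1, 3 and 4. PSMG3 differed by -0.58, -0.61 and -0.37, and PSME3 by -0.51, -0.59 and -0.44. PSMB5 differed by -0.53, -0.20 and -0.23. The 2 calls rested on few arrays. Without H1975 PBS replicate 1 or Pirfenidone replicate 3, 0 members passed, and without PBS replicate 2 or 3, 1 passed. Without both run 1 arrays the median was -0.17 with 41 of 44 lower, and 0 passed. With run as a block, 8 members passed, all lower (PSMA5, PSMC3, PSMC4, PSMD3, PSMD11, PSMD13, PSME3 and PSMG3), beside 13.2% of all probes.

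**Figure D3:**
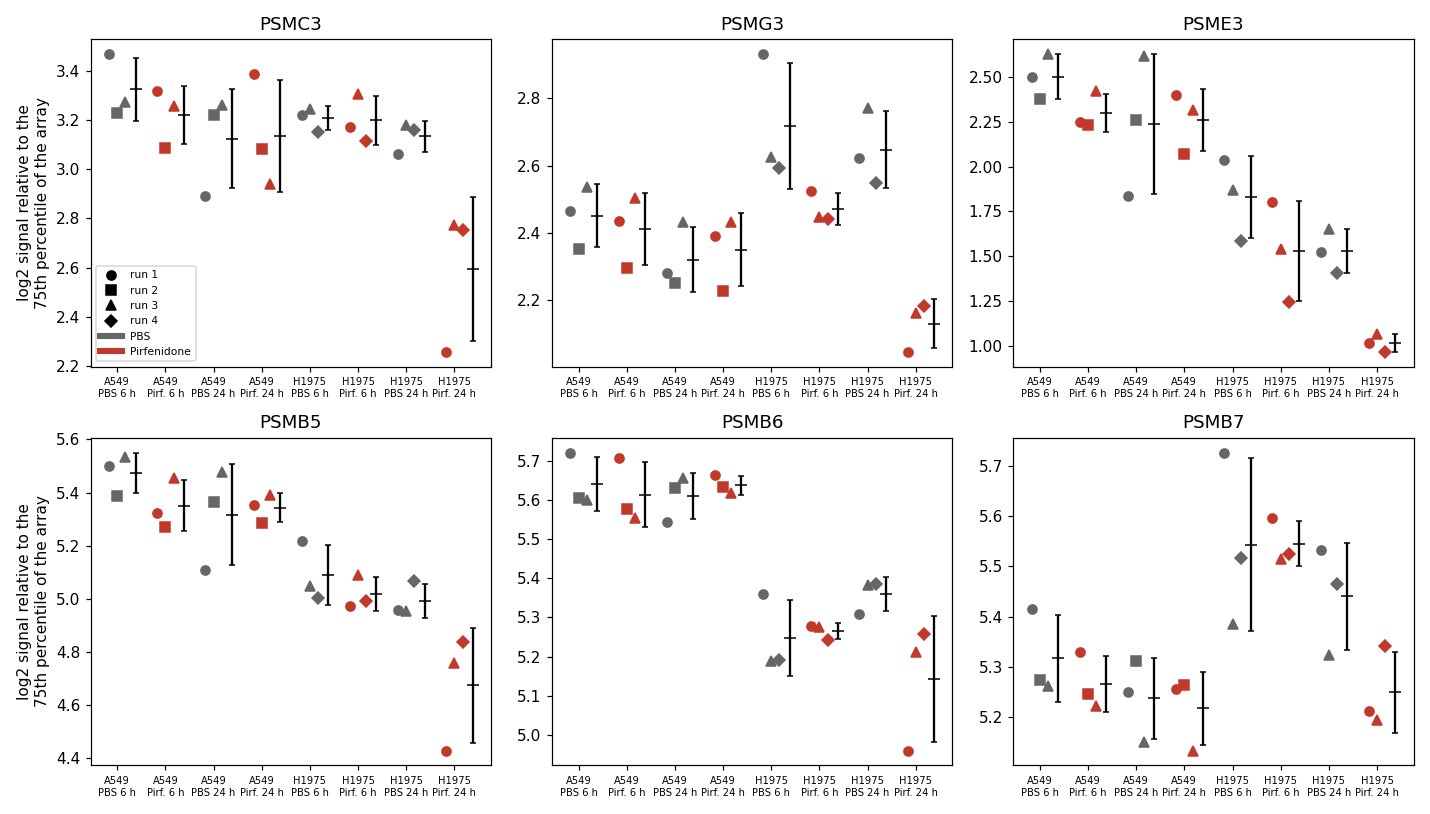
Log2 signal relative to the array's 75th percentile for PSMC3, PSMG3, PSME3, PSMB5, PSMB6 and PSMB7 on each array, with marker shape giving the run, color the treatment and bars the mean ± SD of 3 arrays; vertical axes differ between panels and do not start at 0. The 3 H1975 Pirfenidone 24 h arrays of PSMG3 lie between 2.05 and 2.18, below its 3 PBS 24 h arrays at 2.55 to 2.77.

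In H1975 at 6 h, 0 of 44 members passed by limma, against 1.41% of all probes. The median difference was -0.04, with 31 of 44 lower and a range of -0.30 to 0.11, against 0.05 over all probes, and all 3 classes had a median of -0.04. At an unadjusted p under 0.05, 2 of 44 members were lower and 0 higher, a smaller share than the 11.03% of all probes. For 3 members (PSMD5, PSMD12 and PSMG3) all Pirfenidone arrays lay below all PBS arrays, as for 7.16% of all probes. By run, the median was -0.13 in run 1 (42 of 44 lower), 0.05 in run 3 (42 genes measured) and -0.01 in run 4. Over all probes it was -0.02, 0.12 and 0.03 in these runs. The members' medians were thus not of 1 direction, but each lay below that of all probes in its run. Bright probes, which most members are, also lay below all probes in the fit. Over the 3321 bright probes the median was 0.02 with 45.3% lower, against 41.0% of all probes, and they were not read by run.

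The cutting subunits stayed close to their PBS values in H1975 at 6 h. PSMB5 read 5.22, 5.05 and 5.00 with PBS and 5.09, 4.99 and 4.97 with Pirfenidone, a difference of -0.07 (95% interval -0.31 to 0.17). PSMB6 read 5.36, 5.19 and 5.19 against 5.28, 5.24 and 5.28, a difference of 0.02 (-0.17 to 0.21), and PSMB7 read 5.73, 5.39 and 5.52 against 5.51, 5.52 and 5.60, a difference of 0.00 (-0.20 to 0.20). All 3 overlapped between treatments, as did PSMB10, which read 4.79, 3.93 and 4.05 against 4.02, 3.75 and 4.57, a difference of -0.14 (-0.66 to 0.38). The class extremes were wider. PSMD12, a lid scaffold subunit, read 3.18, 2.99 and 2.95 with PBS and 2.76, 2.74 and 2.78 with Pirfenidone, with no overlap, a difference of -0.28 (SE 0.12, limma adjusted p = 0.390). PSME3 read 2.04, 1.87 and 1.59 against 1.54, 1.24 and 1.80, which overlapped, a difference of -0.30 (limma adjusted p = 0.588). The alpha subunit PSMA4 read 3.36, 3.24 and 3.05 against 2.64, 3.10 and 3.17, overlapping again, a difference of -0.24 (limma adjusted p = 0.557). At the high end, the beta subunit PSMB1 read 5.84, 5.64 and 5.58 against 5.94, 5.70 and 5.74 (difference 0.11, limma adjusted p = 0.867). PSMD4 read 5.17, 4.90 and 5.01 against 5.17, 5.19 and 4.99 (0.09, limma adjusted p = 0.900). PSME1, with 1 PBS array missing, read 0.10 and -0.43 against 0.11, -0.29 and 0.00 (0.10, limma adjusted p = 0.942). The treatments overlapped for all 3.

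In A549 at 6 h, 0 of 44 members passed by limma, beside 0.34% of all probes, and 0 had an unadjusted p under 0.05, which 6.01% of all probes had. The median difference was -0.05 with 36 of 44 lower, over a range of -0.20 to 0.07, though with quantile normalization it was -0.01 with 23 lower. Over all probes it was -0.01, and over the 3321 bright probes -0.04 with 69.9% lower. The class medians were -0.06 for the cap, -0.05 for the core and -0.01 for the regulators. For 2 members (PSMA6 and PSMD12) the arrays were all lower with Pirfenidone, as for 8.24% of all probes. The within-run medians were -0.09, -0.04 and -0.03 in runs 1, 2 and 3, against -0.03, 0.004 and -0.03 over all probes. In all 3 runs 24 of 44 genes were lower, a share that was not counted over all probes and so does not set the members apart.

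PSMB5 in A549 at 6 h read 5.39, 5.53 and 5.50 with PBS and 5.27, 5.46 and 5.32 with Pirfenidone, a difference of -0.12 (95% interval -0.36 to 0.11). PSMB6 read 5.60, 5.60 and 5.72 against 5.58, 5.55 and 5.71, a difference of -0.03 (-0.22 to 0.16), and PSMB7 read 5.27, 5.26 and 5.42 against 5.25, 5.22 and 5.33, a difference of -0.05 (-0.25 to 0.15). PSMB10 read 3.98, 4.15 and 4.32 against 3.84, 4.07 and 4.07, a difference of -0.15 (-0.68 to 0.37), the lowest of the core. Treatments overlapped for all 4. The alpha subunit PSMA1 was the highest of the core, with 4.68, 4.62 and 4.78 against 4.72, 4.68 and 4.72 (0.01). In the cap, the lid subunit PSMD6 read 2.29, 2.61 and 2.42 against 2.13, 2.38 and 2.21 (-0.20), and PSMD10 (gankyrin, a chaperone of cap assembly) 1.47, 1.52 and 1.60 against 1.57, 1.5 and 1.69 (0.06). Of the regulators, PSME3 read 2.38, 2.63 and 2.50 against 2.23, 2.42 and 2.25 (-0.20), and the activator PSME4 0.31, 0.68 and 0.20 against 0.46, 0.68 and 0.27 (0.07). All of these overlapped between treatments and had a limma adjusted p of 1.

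In A549 at 24 h, 0 of 44 members passed by limma, beside 0.0126% of all probes, and 0 had an unadjusted p under 0.05, against 0.953% of all probes. The median difference was 0.02 with 31 of 44 higher, over a range of -0.09 to 0.25, but -0.03 with 29 of 44 lower once both run 1 arrays were left out. The class medians were 0.04 for the cap, 0.00 for the core and 0.03 for the regulators, against -0.02 over all probes. By run, the median was 0.18 in run 1 (37 of 44 higher), -0.03 in run 2 and -0.05 in run 3, against -0.05, -0.01 and -0.03 over all probes. Only PSME2, an activator subunit, had all Pirfenidone arrays above all PBS arrays, as did 0.571% of all probes.

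PSME2 in A549 at 24 h read 5.48, 5.53 and 5.43 with PBS and 5.59, 5.55 and 5.56 with Pirfenidone, a difference of 0.08 (95% interval -0.17 to 0.34). PSMB5 read 5.37, 5.48 and 5.11 against 5.29, 5.39 and 5.35, a difference of 0.03 (-0.21 to 0.26), and PSMB6 read 5.63, 5.66 and 5.54 against 5.63, 5.62 and 5.66, a difference of 0.03 (-0.16 to 0.21). These groups overlapped, as did those of PSMB7, with 5.31, 5.15 and 5.25 against 5.26, 5.13 and 5.26, a difference of -0.02 (-0.22 to 0.18). PSMB10 read 4.08, 4.16 and 3.84 against 3.91, 4.0 and 4.23, a difference of 0.02 (-0.51 to 0.54). Of the class extremes, PSMD10 had the largest difference, 0.25 (SE 0.13), with 1.59, 1.45 and 1.36 against 1.48, 2.09 and 1.58, and 1 high Pirfenidone array made most of it. The others were PSMB2 (a structural beta subunit; 2.99, 3.09 and 2.98 against 3.03, 3.31 and 3.01), PSMA6 (5.57, 5.55 and 5.64 against 5.62, 5.45 and 5.53), PSMC5 (an ATPase; 2.42, 2.36 and 2.37 against 2.37, 1.86 and 2.64) and the core chaperone PSMG1 (4.02, 4.19 and 3.73 against 3.88, 3.84 and 4.02). Their differences were 0.10, -0.06, -0.09 and -0.07, all with overlapping arrays. The limma adjusted p was 1 for every gene named here.

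The difference between these changes was tested directly. Between lines at 24 h (H1975 change minus A549 change), the median over the genes was -0.27 with 42 of 44 lower, against 0.06 over all probes. There 0 of 44 members passed by limma (0.239% of all probes did), with a lowest adjusted p of 0.138 and 9 members lower at an unadjusted p under 0.05 (12.2% of all probes in either direction). Between lines at 6 h the median was 0.00, 0 passed (0.0378% of all probes) and 0 had an unadjusted p under 0.05 (2.63% of all probes). Between times in H1975 (24 h minus 6 h) the median was -0.20 with 41 of 44 lower, 0 passed (0.00839% of all probes), and 2 were lower at an unadjusted p under 0.05 (5.86% of all probes). Between times in A549 the median was 0.07 with 37 of 44 higher, 0 passed (0.0294% of all probes), and 0 had an unadjusted p under 0.05 (3.04% of all probes). A different response in H1975 at 24 h was not shown for any single gene by this fit.

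**Figure D4:**
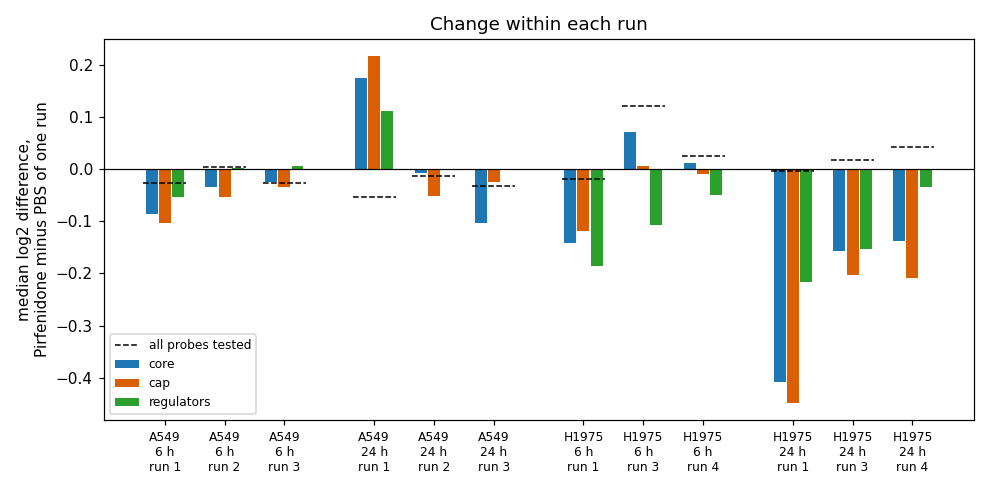
Median log2 difference of Pirfenidone minus PBS within each run, for the core, cap and regulator classes (bars from 0) and all probes tested (dashed), by line and time. H1975 at 24 h in run 1 has the lowest cap and core medians, -0.45 and -0.41, and the cap of A549 at 24 h in run 1 the highest, 0.22.

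Genes of 3 related lists were read beside the members. The first held 15 genes on the array around NFE2L1 (its processing enzymes, relatives and partners), of which 13 were tested, the second 14 proteasome partner proteins, and the third 13 ubiquitin genes and shuttles. In H1975 at 24 h, 3 of 13 genes of the first list passed, all higher, with a list median of 0.34 and 10 of 13 higher, where 6.26% of all probes passed and 52.9% were higher, with a median of 0.02. NFE2L1 rose by 0.455 on the log2 scale (SE 0.13, limma adjusted p = 0.0482), NFE2L3, a relative, by 0.77 (SE 0.21, limma adjusted p = 0.0325), and BACH1, a repressor at the same sites, by 0.59 (SE 0.16, limma adjusted p = 0.0400). The partner list had a median of 0.01 and 0 of 14 passed, and the ubiquitin list a median of -0.09 with 1 of 13 passing. UBA6, a ubiquitin-activating enzyme, was that gene and fell by 0.47 on the log2 scale (SE 0.13, limma adjusted p = 0.0351). These 4 calls were lost in 8 to 10 of 16 alternative limma fits. In A549 at 6 h, SYVN1, a ubiquitin ligase of the endoplasmic reticulum, rose by 1.11 (SE 0.23, limma adjusted p = 0.0403), a call kept in 7 of 15 such fits, and no other gene of the 3 lists passed. In A549 at 24 h and H1975 at 6 h, 0 genes of the lists passed. Members with the TGACNNNGC motif in the promoter had a median change of -0.27 in H1975 at 24 h (12 genes) and those without -0.25 (26 genes). With and without CCAAT it was -0.31 (17 genes) and -0.23 (21 genes).

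The lines differed far more than the treatments did, but no slide held both lines, so line cannot be told apart from slide. In PBS at 6 h, 23 of 44 members differed between H1975 and A549 (8 higher and 15 lower in H1975), beside 58.6% of all probes (30.7% higher, 27.9% lower). At 24 h, 24 did (10 higher, 14 lower), beside 59.2% of all probes (32% higher, 27.2% lower). The split moved with the scaling, as quantile normalization gave 12 higher and 12 lower at 6 h and 14 higher and 11 lower at 24 h. The split over all probes was not counted under that scaling, so these counts show only how the members' split moved. With a 2-fold limit, 4 members passed at 6 h and 3 at 24 h, beside 32.4% and 32.9% of all probes. By class, 8 core, 10 cap and 5 regulator genes passed at 6 h, and 8, 10 and 6 at 24 h. The median over the genes was -0.12 at 6 h and -0.06 at 24 h, against 0.06 and 0.08 over all probes. The 2 comparisons share no arrays, but they share runs and most slides, so they are not independent repeats. In both, 21 genes passed in the same direction (8 higher, 13 lower), which is 91.3% of the 6 h list and 87.5% of the 24 h list. The matching share over all probes was not counted, so these shares say nothing particular to the members. PSMB3 and PSMD3 passed at 6 h alone, and PSMB4, PSMD10 and PSME2 at 24 h alone.

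PSMC4, an ATPase of the cap ring (probe at chr19:40485988-40486047 in hg19), read 3.95, 4.0 and 3.77 in A549 PBS at 6 h and 2.12, 2.01 and 1.76 in H1975 PBS at 6 h. At 24 h it read 3.86, 4.06 and 3.69 against 1.97, 1.92 and 1.85. The lines were far apart at both times, by -1.95 each time (SE 0.14, limma adjusted p = 5.5e-10 and 5.3e-10). PSMD8, a lid subunit (probe within chr19:38871613-38872789 in hg19), read 5.25, 5.30 and 5.20 against 4.20, 4.06 and 3.97 at 6 h, and 5.21, 5.30 and 5.04 against 4.05, 4.01 and 4.03 at 24 h. It too was separate, by -1.18 and -1.16 (SE 0.10, limma adjusted p = 7e-09 and 8.9e-09). PSMA4 (probe at chr15:78837978-78838037 in hg19) read 4.17, 4.34 and 4.27 against 3.36, 3.24 and 3.05 at 6 h, a difference of -1.04 (SE 0.13, limma adjusted p = 1.7e-06). At 24 h it differed by -0.94, just under 2-fold.

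In the other direction, PSMG4, a chaperone of core assembly (probe at chr6:3267946-3268005 in hg19), read 2.31, 2.66 and 2.72 in A549 PBS and 3.75, 3.58 and 3.71 in H1975 PBS at 6 h. At 24 h it read 2.38, 2.45 and 2.64 against 3.45, 3.67 and 3.58. H1975 was above A549 on every array, by 1.12 and 1.08 (SE 0.12, limma adjusted p = 2.2e-07 and 3.7e-07). PSMD2, the second large base scaffold (probe at chr3:184026780-184026839 in hg19), read 5.78, 5.94 and 5.98 against 6.73, 6.41 and 6.46 at 6 h, and 5.89, 5.78 and 5.72 against 6.32, 6.27 and 6.66 at 24 h. Its lines were separate as well, by 0.63 and 0.62 (SE 0.11, limma adjusted p = 6.6e-05 and 8.2e-05). Of the cutting subunits, PSMB5 (-0.39 at 6 h, -0.33 at 24 h) and PSMB6 (-0.39 and -0.25) passed at both times and were lower in H1975. PSMB7 (0.23 and 0.20) and PSMB10 (0.10 and 0.26) did not pass. Some genes had probes that disagreed at 6 h: PSMF1 read -0.47 by its brightest probe and -1.5, 0.31 and 0.29 by the others, PSMD9 -0.78 and -2.69, and PSME4 -0.02 and -1.02. For PSMD2 and PSMG4 the second probes, at 1.24 and 1.89, had the direction of the first. Of the 47 calls at both times, 26 held in every alternative limma fit at this threshold, and all 47 kept their sign in them. With the mean over a gene's probes, PSMD10 at 24 h was lost (limma adjusted p = 0.856).

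**Figure D5:**
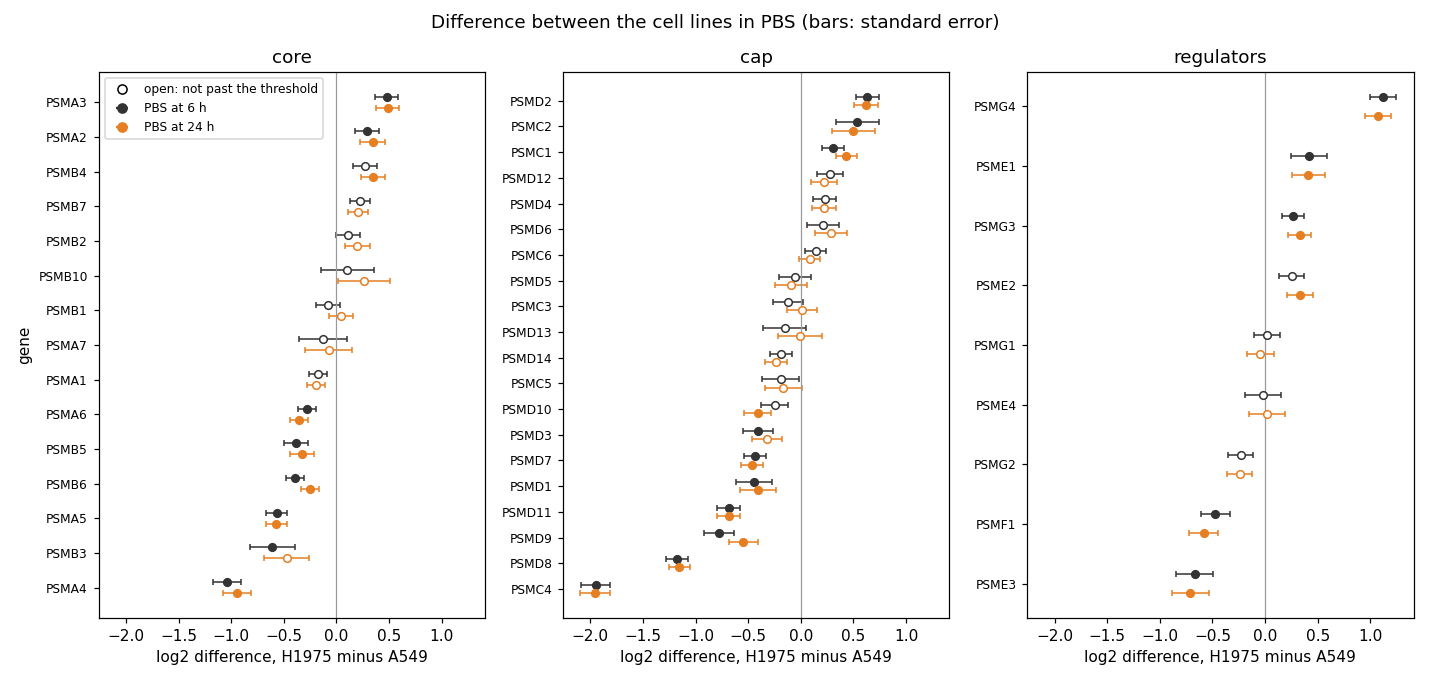
Log2 difference of H1975 minus A549 in PBS at 6 h (dark) and 24 h (orange) for the 44 genes by class, with bars for 1 SE and filled points past the threshold. PSMC4 stands at -1.95 at both times and PSMG4 at 1.12 and 1.08.

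The genes near the largest differences were read at the array's hg19 positions, within 1 Mb. Around PSMC4 the 46 tested neighbours had a median line difference of -1.75 at 6 h, with 38 lower and 37 that passed lower, and -1.63 at 24 h with 37 lower. Around PSMD8, which lies 1.61 Mb away so that the windows overlap, 46 neighbours had a median of -1.14 at 6 h (33 lower) and -0.81 at 24 h (32 lower). The 19 neighbours of PSMA4 had a median of -0.86 and -0.61, with 15 lower at both times. Around PSMG4, 17 neighbours had a median of 0.09 and -0.01. Over all probes tested 47.3% were lower at 6 h and 46.2% at 24 h. Copy number was not measured.

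The related lists were also read between lines in PBS, where 58.6% of all probes passed at 6 h and 59.2% at 24 h. Of the NFE2L1 list, 9 of 13 passed at 6 h (4 higher, 5 lower in H1975) and 8 at 24 h (3 higher, 5 lower). NFE2L1 was lower in H1975 by -0.96 and -1.0. The small MAF genes MAFG (-1.42 and -1.65) and MAFK (-1.94 and -2.08) were lower too, while NFE2L3 (1.5 and 1.34) was higher. MAFF, the other small MAF gene of the list, also passed at both times, as did KEAP1, NGLY1 and VCP, and FBXW7 passed at 6 h alone. As the list went both ways, the genes with values given do not stand for all of it. Of the partner list, 6 of 14 passed at both times (2 higher, 4 lower), among them POMP, the core maturation factor, at -1.40 and -1.59, and FBXO7 at 0.84 and 0.97. Of the ubiquitin list, 7 of 13 passed at both times (6 higher, 1 lower).

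Between 6 h and 24 h in PBS, 0 of 44 members passed by limma in either line, beside 0.134% of all probes in A549 and 0.663% in H1975. The median of 24 h minus 6 h was -0.10 in A549 with 41 of 44 lower (range -0.37 to 0.22) and -0.07 in H1975 with 34 lower (-0.43 to 0.22), against 0.02 and 0.04 over all probes. At an unadjusted p under 0.05, 3 of 44 members were lower in A549 and 2 in H1975, smaller shares than the 8.49% and 10.6% of all probes. PSMD12 had the lowest difference in both lines and was singled out for that. In H1975 it read 3.18, 2.99 and 2.95 at 6 h and 2.59, 2.69 and 2.56 at 24 h, with no overlap, a difference of -0.43 (SE 0.12, limma adjusted p = 0.132). In A549 its difference was -0.37 (SE 0.12, limma adjusted p = 0.392).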

How the data were processed

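Total RNA of 24 samples was labelled by the authors with Cy3 and hybridised to one-color Agilent arrays, 1 per sample. The deposited scanner files hold each spot's intensity, background-subtracted by the authors with Agilent Feature Extraction. The authors' deposited table holds processed log2 values centred on each probe's median over the arrays, with a per-array constant whose origin the sources used here do not state. It served as an alternative. Groups and replicate numbers came from the sample labels, and 0 columns of other samples were found.

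The processed signal was taken as log2 minus the log2 of the array's 75th percentile, without outlier spots, and averaged over a probe's spots. Probes entered the test when well above background on all arrays of a group, 23827 of 34127. One limma fit (3.58.1, R 4.3.3) of the 24 arrays by group, with 16 residual degrees of freedom, gave two-sided p-values, adjusted over all probes (Benjamini-Hochberg). The threshold was an adjusted p of 0.05 or less, with a 2-fold limit as a second rule. Each gene was read by its brightest probe, positions are those of the array files (hg19, where exons and UTRs are not given), and the scripts were tested on simulated data. With 3 arrays per group, precision was limited, and the SE of a member's change had a median of 0.12.

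Named were the cutting subunits and PSMB10, the highest and lowest member of each class in each drug comparison, the members past a threshold with the fold limit, and the 2 largest line differences each way. List genes that passed in a drug comparison were named too, and some of those that passed between lines. The members, the lists and the rules were chosen with earlier results of these data known. Alternatives were normexp background correction (offset 50), quantile normalization, the authors' values, other filters, replicate, run or slide as a block, only the compared arrays, the mean of all probes, arrays left out, and a plain t-test paired by run. The study's methods name a moderated test for the arrays. A figure legend of the study names a paired t-test for selected genes, without saying that pairs were formed by run. Some items are not reported here. Figures used Python 3.11.15, pandas 2.3.3 and matplotlib 3.10.9.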

Additional observations from a re-analysis of the deposited data

How the results depend on the processing

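In H1975 at 24 h the number of members past the threshold, 2 in the fit reported, was 0 with the 2-fold limit, 1 with normexp background correction, 8 with run as a block, 14 with slide as a block (17.3% of all probes passed then), 0 with only the arrays of the comparison, and 0 to 2 with each array left out in turn. It was 0 without both run 1 arrays, a setting chosen after seeing the data, which also moved the median change from -0.24 to -0.17. A plain t-test paired by run gave 10 members there at an unadjusted p of 0.05 or less (27.2% of all probes) and 0 after Benjamini-Hochberg. Unadjusted, it gave 6 and 1 in A549 (6 h and 24 h) and 5 in H1975 at 6 h. Counts in this section with no share of all probes beside them show only how the count moved with the setting. They do not set the members apart from other genes. Between lines in PBS the counts of 23 and 24 were 4 and 3 with the 2-fold limit, and the 24 h count was 13 with only the arrays of the comparison. With slide as a block, 1 member passed for time in H1975 PBS (PSMD12) and 1 for the line difference of the change at 24 h (PSMG3). PSMC3 kept its call in 10 of 17 alternative limma fits (highest limma adjusted p 0.312) and PSMG3 in 13 of 17 (highest 0.141), both with the same direction in all 17. Normexp moved the median of all probes in H1975 at 6 h from 0.05 to 0.29, and that of the members to -0.17. The other counts and medians stayed within 1.5 times or 1 SD, 286 of 307 values in all. No named gene that passed in the reported or the alternative fit changed direction between them. Signs were not compared for genes that passed in neither, and small differences of such genes did change sign between runs. PSMB5 in A549 at 24 h, for example, differed by 0.24, -0.08 and -0.09 in runs 1, 2 and 3. The cause of these shifts was not tested. The replicate numbers did not pair the samples in every comparison: deviations of same-numbered samples correlated at 0.58 to 0.70 in A549 at 6 h, but at -0.68 to 0.43 in H1975 at 6 h, where samples of the same run correlated at 0.50 to 0.82 (0.46 to 0.72 in H1975 at 24 h, -0.10 to 0.39 in A549 at 24 h). With the replicate block the drug comparisons gave 0, 0, 0 and 3 members, and the line comparisons 22 and 25. Dim probes have wider errors, and PSMA8 and PSMB11 gave no level to compare.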
